A study of Mus musculus with 9 samples.

Results

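The CXC chemokines Cxcl1, Cxcl9, Cxcl10, Cxcl12, Cxcl13 and Cxcl14, the CXCL12 receptors Cxcr4 and Ackr3, the eotaxin gene Ccl11 and the chemerin-binding receptor gene Ccrl2 were followed in the pressure-loaded right ventricle. Probe sets were taken wherever the platform annotation names exactly 1 of these 10 symbols, which gave 17 of the 34945 probe sets that name a single gene. The 10 genes are among 18193 genes measured, and 5 of them have 1 probe set. One-colour Affymetrix arrays measured total RNA from the right ventricle of C57BL6J males, 6 to 8 weeks old, with 5 arrays after pulmonary banding and 4 arrays after a sham operation. Banding narrows the pulmonary artery and loads the right ventricle with pressure, and sham mice have the operation without the band. The comparison asks which of these transcripts differ between banded and sham ventricles, in a study whose title names chemokines as regulators of matrix proteoglycans. The sources used here do not give the time since surgery. Arrays carry replicate numbers but no statement that each came from its own mouse, and p-values therefore reflect only the scatter among these arrays, which may be technical.

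Chemokines are small secreted proteins that direct the movement of cells through G protein-coupled receptors, and CXC and CC chemokines differ in the spacing of their first cysteines. CXCL9 and CXCL10 are induced by interferons and attract activated T cells through CXCR3, whereas CXCL12 is made constitutively by stromal cells and keeps CXCR4-bearing leukocytes and progenitors in place. ACKR3 is an atypical receptor that binds CXCL12 and removes it without classical G protein signalling. In the heart, CXCL12 and CXCR4 are known from studies of ischaemia, and eotaxin is known for drawing eosinophils through CCR3.

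Of the 10 genes, 3 were higher in banding (Cxcl10, Cxcl12 and Cxcr4), 3 were lower (Cxcl14, Ccl11 and Ccrl2) and 4 did not pass (Cxcl9, Cxcl13, Cxcl1 and Ackr3) at an adjusted p of 0.05 in the limma fit over all genes. Over all 18193 genes, 38.4% passed, 18.4% higher and 20.0% lower, and among the 11013 genes that were not dim in both groups 62.0% passed. A group is called dim here when its mean lies under 4.20, which is 2 log2 units above the lowest value in the table. None of the 10 genes was dim in both groups, so the 6 that passed are near the share for measurable genes. The banding and sham arrays did not overlap in these 6 genes, against 36.7% of all genes, a share that includes genes dim in both groups. The share without those genes was not computed. Across the 10 genes the median difference was 0.19 log2 units, beside a median of -0.01 over genes not dim in both groups. Of the 17 probe sets, 8 passed when all 34945 probe sets were tested, 4 higher and 4 lower, where 31.4% of all probe sets passed, 15.3% higher and 16.1% lower. The groups did not overlap at 8 probe sets, against 30.7% of all probe sets.

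**Figure D1:**
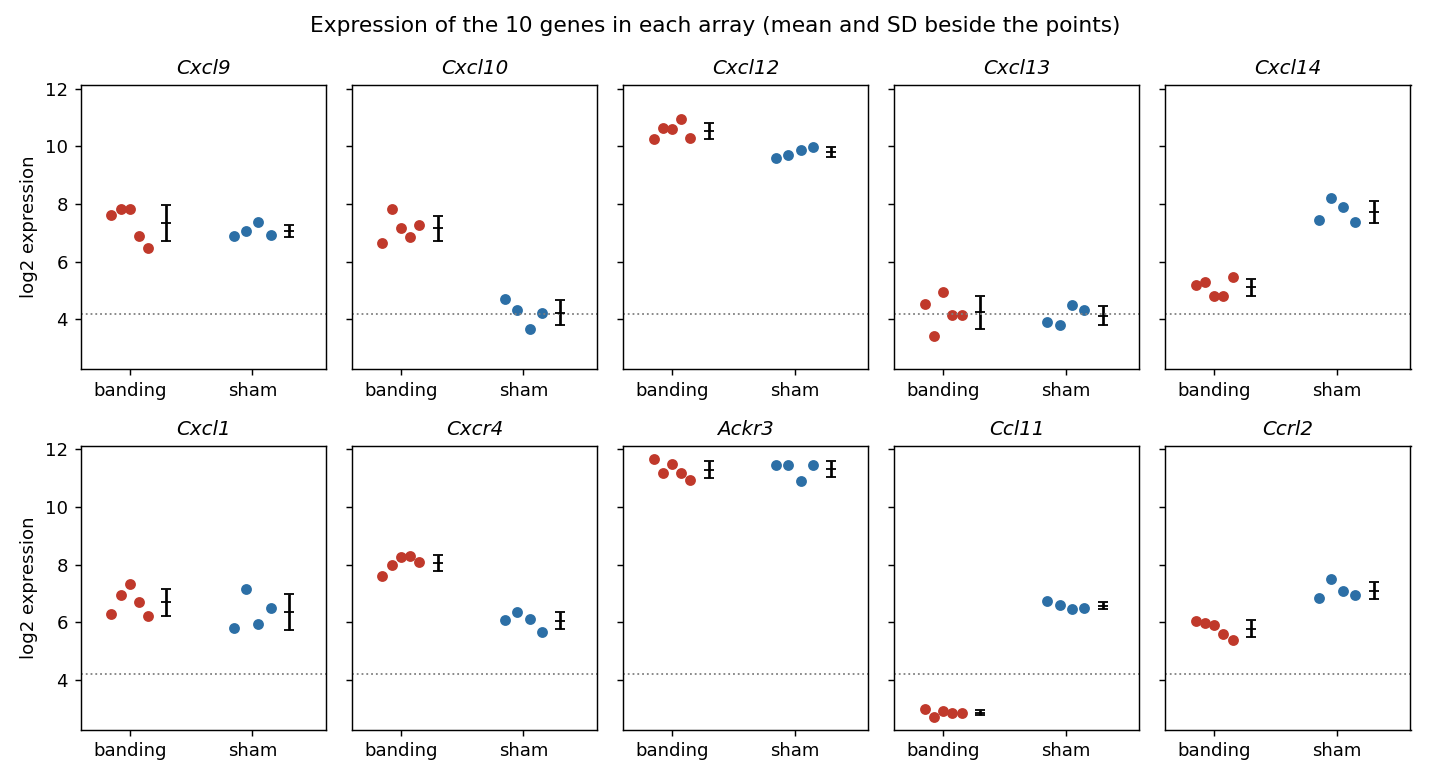
Log2 expression of the 10 genes in each array, at the probe set with the highest mean of each gene, with banding (5 arrays, red) left of sham (4 arrays, blue). Bars beside the points give the mean and SD, and the dotted line marks the dim level. The groups separate completely in Cxcl10, Cxcl12, Cxcl14, Cxcr4, Ccl11 and Ccrl2 and overlap in the other panels.

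Cell composition and array quality may bear on any of these values. Ventricular cardiomyocyte markers were high in both groups, with Myh6 at a mean of 16.23 in banding and 16.36 in sham, and 4 of the 8 markers were lower in banding. Fibroblast markers were higher for 7 of 8, with summed levels of 16.08 to 16.46 in banding and 14.35 to 14.44 in sham on the log2 scale. Macrophage markers were higher for 9 of 10, at 14.69 to 15.28 in banding and 13.69 to 13.96 in sham, and endothelial markers were higher for 6 of 8, at 12.47 to 13.00 in banding and 12.22 to 12.46 in sham. Pericyte and smooth muscle markers were higher for 5 of 7. The 3 atrial cardiomyocyte markers did not pass, and their summed level varied widely, from 10.95 to 14.76 in banding and 10.43 to 13.03 in sham. All 9 hepatocyte markers were lower in banding, at 5.99 to 9.49 against 13.18 to 16.86 in sham. Sham replicate 4 was the highest of these, and among banded arrays only replicate 5 exceeded 6.12. The part of these shifts in the chemokine differences was not tested. For cell types of the ventricle, fewer cells cannot be told apart from less RNA per cell in whole tissue. Hepatocytes are liver cells and not a cell type of the ventricle, and the origin of their transcripts on these arrays was not tested.

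**Figure D2:**
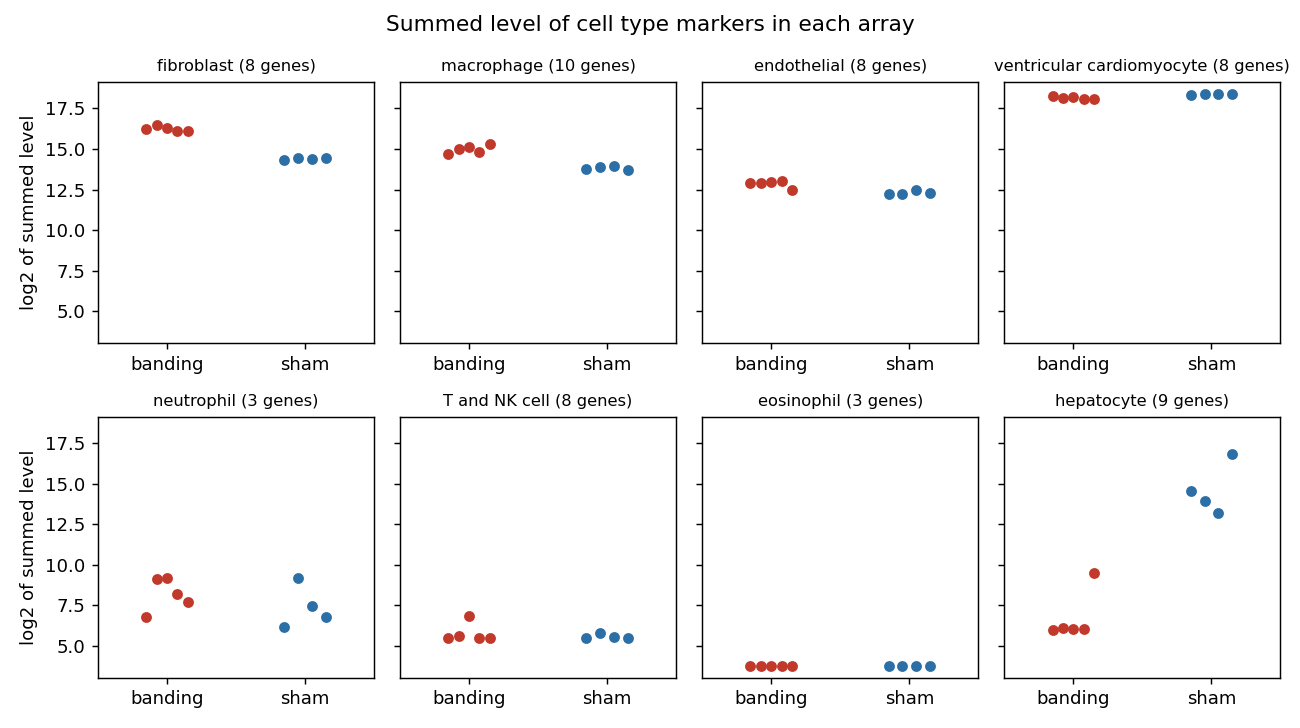
Log2 of the summed linear level of 8 marker lists in each array, banding left of sham. Fibroblast and macrophage markers lie higher in every banded array, hepatocyte markers lie higher in every sham array with sham replicate 4 at 16.86, and eosinophil markers lie at 3.78 in all 9 arrays.

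CXCL10 is the interferon-induced ligand whose transcript moved most among those that rose. Cxcl10 stood at 6.65, 7.81, 7.15, 6.86 and 7.28 log2 units on the 5 banded arrays and at 4.71, 4.31, 3.66 and 4.21 on the 4 sham arrays. Every banded array was above every sham array, and the sham values lay close to the dim level. The difference was 2.93 ± 0.29 log2 units (SE, limma adjusted p = 0.000202), which is 7.60-fold. It remained between 2.74 and 3.09 when any single array was left out.

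Its relative Cxcl9, which signals through the same receptor, did not follow. Cxcl9 stood at 7.61, 7.84, 7.83, 6.90 and 6.46 on the banded arrays and at 6.90, 7.06, 7.38 and 6.92 on the sham arrays. Banded replicates 1 to 3 lay above all sham arrays and replicates 4 and 5 at or below them, so the groups overlap. The difference was 0.26 ± 0.32 with a 95% interval of -0.48 to 1.01 (limma adjusted p = 0.593), an interval that excludes a rise of the size seen in Cxcl10. Without banding replicate 5 it was 0.48 (adjusted p = 0.187). The other Cxcl9 probe set was dim in both groups, at means of 2.76 in banding and 2.73 in sham.

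Cxcl9 and Cxcl10 lie side by side on mouse chromosome 5 with 1 protein-coding gene, Art3, between them. The promoters of this pair are shown because one gene rose and its neighbour did not pass. Each line gives 250 bases before the RefSeq transcription start (GRCm38.p6), read 5′ to 3′ on the gene's own strand, which is the minus strand for both, at chr5:92348890-92349139 for Cxcl10 and chr5:92328080-92328329 for Cxcl9. Capitals mark matches on either strand to the interferon-stimulated response element (GAAA, any 2 bases, GAAA), the gamma-activated site (TTC, any 3 bases, GAA) or the kappa B consensus.
Cxcl10: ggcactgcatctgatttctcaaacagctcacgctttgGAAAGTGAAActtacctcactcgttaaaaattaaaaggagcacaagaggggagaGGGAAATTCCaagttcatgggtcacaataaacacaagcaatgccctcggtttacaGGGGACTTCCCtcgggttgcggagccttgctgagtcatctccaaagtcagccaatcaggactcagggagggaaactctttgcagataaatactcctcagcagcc
Cxcl9: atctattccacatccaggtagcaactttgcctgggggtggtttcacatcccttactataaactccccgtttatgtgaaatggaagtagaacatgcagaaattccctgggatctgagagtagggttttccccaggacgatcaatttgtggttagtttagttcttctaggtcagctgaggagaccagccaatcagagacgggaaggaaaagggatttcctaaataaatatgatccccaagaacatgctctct
The Cxcl10 window holds 1 response element that begins 213 bases before the start, and kappa B matches that begin 159, 104 and 103 bases before it, the last 2 overlapping each other. The Cxcl9 window holds no exact match to any of these patterns, which does not show that it lacks such elements. Among 32851 RefSeq promoter windows of the same length, 2.98% hold the response element, 7.02% the gamma-activated site and 7.25% a kappa B match. Cxcl14, which was lower in banding, also holds a response element at -172 and a gamma-activated site at -191 from the start, while Cxcl1 holds 2 overlapping kappa B matches, and 1 of the 3 listed starts of Ccrl2 holds 1. The hypoxia response core ACGTG, present in 16.6% of windows, occurs in Cxcl1 and Ccrl2. A match describes the letters in a window and not a site in use. Sites outside the window, or with other letters, were not looked for. Whether these matches have a part in the unlike behaviour of Cxcl9 and Cxcl10 was not tested.

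Of 16 other measured genes around CXCR3 and interferon gamma, 3 rose, 2 fell and 11 gave no call, and 6 were dim in both groups. The share that passed was 31.25%, beside 38.4% of all genes. The median difference was 0.05. Irf8, a transcription factor of myeloid cells and of the interferon response, stood at 7.26, 7.60, 7.15, 7.49 and 7.56 on banded arrays and at 5.11, 5.96, 5.45 and 6.06 on sham arrays, and rose by 1.77 ± 0.21 (adjusted p = 0.000472). The receptor chains went opposite ways, with Ifngr1 at 8.92 ± 0.08 on the banded arrays and 8.33 ± 0.15 on the sham arrays (mean ± SD; limma adjusted p = 0.000552). Ifngr2 averaged 9.97 ± 0.20 on the banded arrays and 10.95 ± 0.18 on the sham arrays (limma adjusted p = 0.000665). Tap1, a peptide transporter for antigen presentation, was 2.46-fold higher (adjusted p = 0.0127), and the kinase gene Jak1 was 1.28-fold lower (adjusted p = 0.00672). In the same list Irf1, Gbp2, Psmb8 and Psmb9 did not pass (0.01 ± 0.19, 0.35 ± 0.25, 0.47 ± 0.17 and 0.28 ± 0.22). Without banding replicate 5, Psmb8 passed (0.56, limma adjusted p = 0.0244). The ligand Cxcl11, Ifng itself, Socs1, Ido1 and Ciita lay within 0.5 of the lowest value on all 9 arrays. Cxcr3 had means of 2.32 in banding and 2.24 in sham, and the 8 T and NK cell markers were dim in both groups.

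CXCL12, the stromal ligand of CXCR4 and ACKR3, rose at both of its bright probe sets, but by unequal amounts. At the brighter probe set Cxcl12 stood at 10.26, 10.64, 10.59, 10.93 and 10.29 on banded arrays and at 9.58, 9.71, 9.88 and 9.99 on sham arrays. The groups did not overlap, and the difference was 0.75 ± 0.16 (limma adjusted p = 0.00642), which is 1.68-fold. At the second probe set it stood at 9.45, 10.47, 10.28, 9.91 and 10.20 on banded arrays and at 8.03, 8.38, 8.06 and 8.76 on sham arrays. That difference was 1.76 ± 0.24 (adjusted p = 0.00116 over all probe sets), which is 3.38-fold, with a 95% interval of 1.19 to 2.32 against 0.38 to 1.12 at the first.

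The gap between these probe sets, second minus first within each array, was -0.81, -0.17, -0.30, -1.03 and -0.09 in banding and -1.55, -1.34, -1.82 and -1.23 in sham. It was narrower on every banded array than on any sham array. The mean gap differed by 1.01 between groups. An exact permutation test over all 126 splits of the arrays gave a two-sided p of 0.0159, where the smallest possible was 0.00794. The gap was examined after the values were seen, so this p is given as a description only. The remaining Cxcl12 probe set was dim in both groups, at means of 4.01 in banding and 3.65 in sham (difference 0.37 ± 0.14, adjusted p = 0.09). The mean of the 3 probe sets gave a difference of 0.96.

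Cxcr4, the signalling receptor of CXCL12, stood at 7.62, 8.00, 8.28, 8.30 and 8.08 on banded arrays and at 6.08, 6.37, 6.13 and 5.66 on sham arrays. The lowest banded array lay more than 1 log2 unit above the highest sham array. The difference was 1.999 ± 0.18 (limma adjusted p = 0.000159), and leaving out single arrays gave 1.87 to 2.11. Macrophages are among the cells that carry CXCR4. Most macrophage, fibroblast, endothelial, and pericyte and smooth muscle markers were higher on the same arrays, as given above. The part of these shifts in the rise of Cxcr4 was not tested.

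Ackr3, the scavenging receptor for the same ligand, stood at 11.68, 11.18, 11.50, 11.19 and 10.94 on banded arrays and at 11.44, 11.45, 10.89 and 11.46 on sham arrays. The groups overlap throughout, with sham replicate 3 apart from the other sham arrays. The difference was -0.01 ± 0.19 with a 95% interval of -0.45 to 0.42 (limma adjusted p = 1). This interval excludes a change of the size seen in Cxcr4, but the only Ackr3 probe set is of a type that can match more than 1 transcript.

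Among 15 measured partners of the CXCL12 axis, 11 rose, 1 fell and 3 gave no call, with a median difference of 0.54. That is a share of 80%, beside 62.0% of genes not dim in both groups. Both abundant inhibitory G protein subunits rose, with Gnai2 at 11.62 ± 0.04 on banded arrays and 10.83 ± 0.04 on sham arrays (mean ± SD; limma adjusted p = 8.75e-06). Gnai3 averaged 10.50 ± 0.08 on banded arrays and 9.21 ± 0.16 on sham arrays (limma adjusted p = 3.65e-05). Arrb2, an arrestin that binds CXCR4 and ACKR3, rose by 1.35 ± 0.10 (limma adjusted p = 7.11e-05). Hif1a, the oxygen-regulated transcription factor under which CXCL12 and CXCR4 are known to be induced, rose by 1.38 ± 0.11 (adjusted p = 9.2e-05). Mif, a further ligand of CXCR4, and its receptor Cd74 were 1.79-fold and 1.65-fold higher (adjusted p = 0.00114 and 0.0162).

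The receptor kinases split, with Grk5 and Grk6 higher by 1.09 ± 0.12 and 0.54 ± 0.05 and Grk3 lower at -0.68 ± 0.12 (adjusted p = 0.000362, 0.000222 and 0.00275). Dpp4, the peptidase that inactivates CXCL12, stood at 5.72, 5.67, 5.72, 5.58 and 4.65 in banding and at 6.05, 6.56, 5.72 and 6.80 in sham. Its difference of -0.82 ± 0.31 did not pass (adjusted p = 0.0762), except without sham replicate 3 (-1.004, adjusted p = 0.0455). Leaving out both sham replicate 4 and banding replicate 5 ended the calls of Cd74, Arrb1 and Gnai1 (adjusted p = 0.0568, 0.0755 and 0.136), so that 8 were higher. Gnai1 alone lost its call without any 1 of 6 arrays, namely banding replicates 2, 4 and 5 and sham replicates 2, 3 and 4 (adjusted p from 0.0635 to 0.0971).

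**Figure D3:**
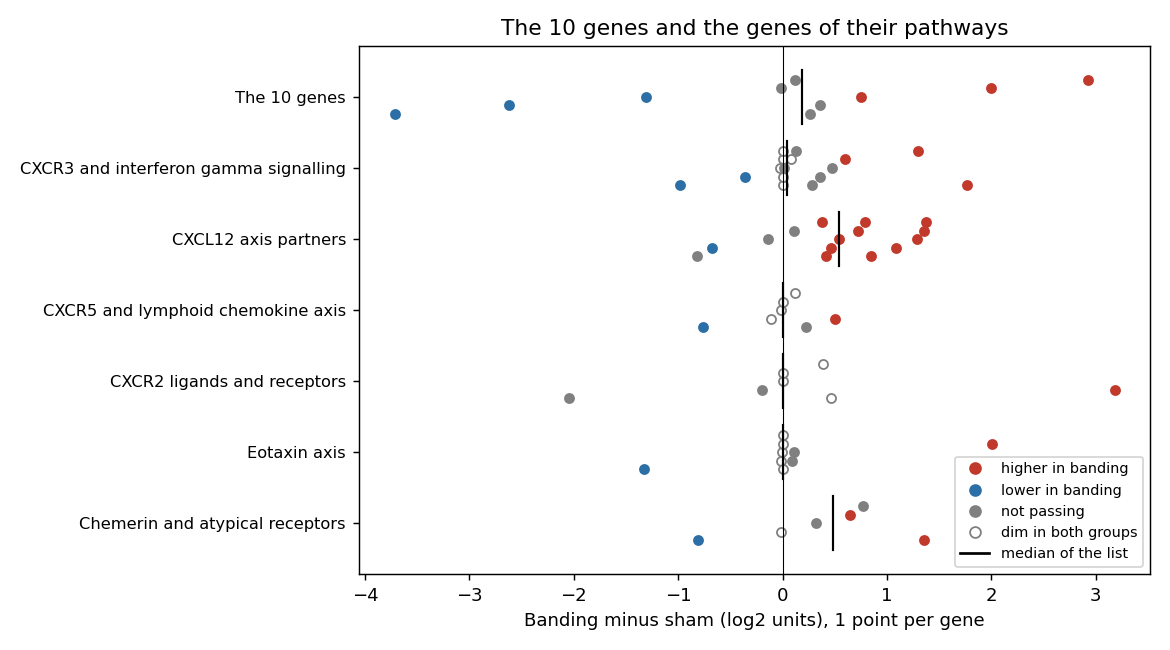
Banding minus sham in log2 units for the 10 genes and the genes of their pathways, 1 point per gene, coloured by the limma call (red higher, blue lower, grey not passing), open where dim in both groups, with a bar at the list median. CXCL12 axis partners lie mostly right of 0 with a median of 0.54, and many genes of the CXCR5, CXCR2 and eotaxin lists lie at 0 and are dim in both groups.

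CXCL14 is a chemokine made in resting epithelia and connective tissue, and its transcript was lower after banding at both of its probe sets. Cxcl14 stood at 5.19, 5.28, 4.80, 4.80 and 5.45 on banded arrays and at 7.43, 8.19, 7.89 and 7.37 on sham arrays. The groups were separated by nearly 2 log2 units. The difference was -2.62 ± 0.22 (limma adjusted p = 0.000115), which is 6.14-fold lower. The second probe set gave -2.66 ± 0.24 (adjusted p = 0.000186 over all probe sets), with 3.71, 3.99, 3.62, 3.60 and 3.90 on banded arrays and 6.07, 7.17, 6.36 and 6.09 on sham arrays. Its banded values are dim, so the fold there is at least 4.67. On the same arrays 7 of 8 fibroblast markers were higher and all 9 hepatocyte markers were lower, and their part in the fall was not tested.

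**Figure D4:**
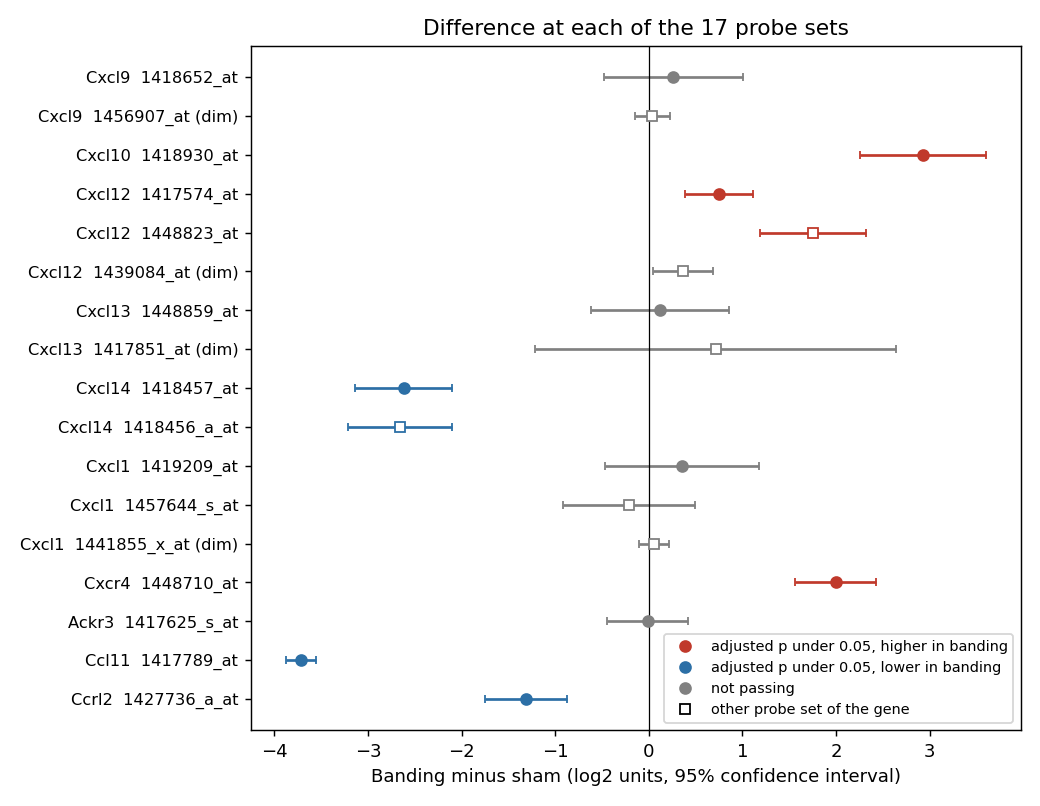
Banding minus sham at each of the 17 probe sets, in log2 units with 95% confidence intervals, from the fit over all probe sets. Filled circles are the probe sets used for the gene values and open squares the others. The Cxcl14 probe sets coincide near -2.6, whereas the bright Cxcl12 probe sets give 0.75 and 1.76.

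CXCL13, which attracts B cells through CXCR5, gave no detectable difference, and its signal lay at the dim level. Cxcl13 stood at 4.54, 3.40, 4.96, 4.15 and 4.15 on banded arrays and at 3.89, 3.80, 4.48 and 4.32 on sham arrays (difference 0.12 ± 0.32, 95% interval -0.62 to 0.86, limma adjusted p = 0.909). The second probe set read 5.50, 2.49, 5.82, 2.97 and 3.42 on banded arrays and 2.49, 2.80, 4.15 and 3.87 on sham arrays. Both probe sets placed banded replicates 1 and 3 highest and replicate 2 lowest among banded arrays. Of 7 measured genes of the CXCR5 and lymphoid chemokine axis, 1 was higher (Ltb), 1 was lower (Tnfsf13b) and 5 did not pass, with 4 of the 7 dim in both groups. That is 28.6% called, beside 38.4% of all genes. The call of Ltb (at least 1.26-fold, adjusted p = 0.0289) was lost without any 1 of 5 arrays, namely banding replicates 1 and 3 and sham replicates 1, 2 and 4 (adjusted p from 0.0601 to 0.0802). Tnfsf13b, the B cell survival factor BAFF, was 1.69-fold lower (adjusted p = 0.00582). Cxcr5 lay within 0.5 of the lowest value on all 9 arrays, and the 4 measured B cell markers were dim in both groups.

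CXCL1, a ligand of CXCR2 that recruits neutrophils, did not pass at any of its 3 probe sets. Cxcl1 stood at 6.29, 6.96, 7.33, 6.71 and 6.21 on banded arrays and at 5.79, 7.17, 5.94 and 6.48 on sham arrays, and the groups overlap. The difference was 0.36 ± 0.35 with a 95% interval of -0.47 to 1.18 (limma adjusted p = 0.506). Leaving out single arrays gave 0.17 (without sham replicate 1) to 0.63 (without sham replicate 2), neither past the threshold. The second bright probe set gave -0.21 ± 0.30, the opposite direction, the remaining one was dim in both groups, and the mean of the 3 gave 0.066.

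Of 7 other measured CXCR2 ligands and receptors, 1 was higher, 0 were lower and 6 did not pass, with 4 of the 7 dim in both groups. That is 14.3% called, beside 38.4% of all genes. Cxcl5, a neutrophil-attracting ligand, stood at 4.27, 7.17, 8.17, 5.57 and 6.12 on banded arrays and at 2.72, 4.005, 2.87 and 2.72 on sham arrays. Every banded array was higher, over a range of nearly 4 log2 units, and the rise was at least 4.17-fold (adjusted p = 0.0138), a call lost without sham replicate 4 and banding replicate 5 together (adjusted p = 0.074). The platelet gene Ppbp read 5.34, 7.63, 5.10, 5.66 and 5.10 in banding and 6.76, 9.41, 8.10 and 6.96 in sham (-2.04 ± 0.74, adjusted p = 0.0657), and passed without banding replicate 2 (-2.51, adjusted p = 0.0183). Cxcl2 was dim in both groups and Cxcr2 lay at the lowest value on all arrays. Of 3 measured neutrophil markers 1 was higher, and their summed level ran from 6.80 to 9.22 in banding and from 6.18 to 9.21 in sham.

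CCL11, or eotaxin, attracts eosinophils through CCR3 and is made by fibroblasts and other stromal cells. Ccl11 stood at 2.98, 2.72, 2.91, 2.86 and 2.86 on banded arrays and at 6.74, 6.61, 6.47 and 6.51 on sham arrays. All 5 banded arrays were dim while the 4 sham arrays lay within 0.3 of each other. The fitted difference was -3.72 ± 0.07 (limma adjusted p = 5.87e-07), and because the banded group is dim the fold is at least 5.22. With values floored at the dim level the difference was -2.38 (adjusted p = 1.51e-06). Without sham replicate 4, where hepatocyte markers were highest, it was -3.74, and without any other single array it lay between -3.67 and -3.76. Hepatocyte markers were higher on every sham array than on any banded array, so leaving out a single array does not remove that shift. The part of that shift in the fall of Ccl11 was not tested.

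The second eotaxin, Ccl24, was also lower, at 3.39, 3.01, 3.39, 3.35 and 3.39 on banded arrays and 3.89, 5.53, 4.49 and 4.63 on sham arrays. The fall was at least 1.35-fold (adjusted p = 0.00924) and was no longer called without sham replicate 4 and banding replicate 5 together (adjusted p = 0.0504). Of the 9 eotaxin axis genes 1 was higher, 1 was lower and 7 did not pass, with 5 of the 9 dim in both groups. That is 22.2% called, beside 38.4% of all genes. Il4ra, the receptor chain through which interleukin 4 and interleukin 13 induce eotaxins, went the other way, at 6.84, 7.08, 6.85, 7.02 and 7.37 in banding and 5.09, 5.44, 4.75 and 4.83 in sham (2.003 ± 0.17, adjusted p = 0.000117). Il13ra1 and Stat6, which act with it, did not pass (0.11 ± 0.05 and 0.09 ± 0.07). Il4, Il5, Il13 and the receptor gene Ccr3 lay within 0.5 of the lowest value on all 9 arrays. The same held for the eosinophil markers Epx, Prg2 and Siglecf.

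CCRL2 binds chemerin and presents it to cells that carry CMKLR1, without signalling of its own. Ccrl2 stood at 6.04, 5.98, 5.92, 5.59 and 5.38 on banded arrays and at 6.83, 7.50, 7.09 and 6.95 on sham arrays. Each banded array lay below each sham array. The difference was -1.31 ± 0.19 (limma adjusted p = 0.00101), which is 2.48-fold lower.

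Rarres2, which encodes chemerin, was lower as well, at 9.11 ± 0.27 on banded arrays and 9.92 ± 0.22 on sham arrays (mean ± SD; limma adjusted p = 0.0053). Liver is a main source of chemerin, and the part of the hepatocyte shift in this result was not tested. Its receptor Cmklr1 was 1.57-fold higher (adjusted p = 0.031). That call was lost without any 1 of banding replicates 1, 4 and 5 and sham replicates 1, 2 and 3 (adjusted p from 0.0556 to 0.0817). Among other atypical receptors Ackr1 was at least 1.61-fold higher, and Ackr2 and Ackr4 did not pass (0.77 ± 0.26 and 0.32 ± 0.15). Ackr1 was no longer called without sham replicate 4 and banding replicate 5 together (adjusted p = 0.0508), and Ackr2 passed without banding replicate 2 or 4.

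The 6 genes that passed were set against all other genes by the root mean square difference between mean-centred values over the 9 arrays. Cxcl10 lay nearest to Tnfaip6, Matn4 and Sfrp1, at 0.26, 0.28 and 0.29 log2 units. Cxcl12 lay nearest to Zfp704, Igf1r and Nostrin at 0.12 to 0.13, and Cxcr4 to Ms4a4c, Zdhhc20 and Dubr at 0.16 to 0.17. On the falling side, Cxcl14 lay nearest to Ano10, Mrgprh and Gzmm at 0.29 to 0.32, and Ccrl2 to Rbm20, Fam228b and Rdm1 at 0.12 to 0.14. Ccl11 lay nearest to Rbm45, Ybx2 and Lgals4, at 0.32, 0.39 and 0.40. The distance depends largely on how alike the differences between groups are.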

How the data were processed

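The authors deposited a log2 value for each probe set on each array. RMA and GCRMA, which correct background and normalise between arrays, are named per the submitters' processing notes, without version, role or order, and the sources used here name no genome build. Of 45101 probe sets, 64 controls, 9160 naming no gene and 932 naming several were left out. Each of 18193 genes was represented by its probe set with the highest mean over the 9 arrays. The groups were compared by limma 3.58.1 in R 4.3.3 (lmFit and eBayes, two-sided, no covariates), and p-values were adjusted over all genes by Benjamini-Hochberg at a threshold of 0.05. A second fit covered all 34945 probe sets. No filter was applied in either. Folds against a dim group were computed against the dim level and are written "at least". Marker levels are log2 of summed linear values. The fit was tested on simulated data. Pairs of arrays correlated across genes at 0.993 to 0.997 within banding, 0.983 to 0.997 within sham and 0.945 to 0.977 between groups. Median values per array ran from 3.23 to 3.31. Precision is limited by the number of arrays. The 10 genes, the lists and the tests were chosen with earlier results of these data known. Named were all 10 genes, their binding partners, and up to 4 genes with the smallest p of each list. Also named were 3 nearest genes for each gene past the threshold. Outside this rule, Tap1, Ifng, Mif, Cd74, Grk3, Grk5, Grk6, Arrb1, Gnai1, Stat6, Il4, Il5, Ackr4 and Myh6 were chosen after their values were seen. The same holds for Irf1, Gbp2, Psmb8, Psmb9, Socs1, Ido1 and Ciita. Replicate numbers did not pair the arrays. Listed genes without a single-gene probe set were not analysed here. Promoter sequences come from RefSeq (GRCm38.p6) by symbol, for 9 of the 10 genes. Alternatives were the mean of a gene's probe sets, adjustment over all probe sets, and leaving out probe sets with suffix x, s or a. Further alternatives were a filter on dim genes, a floor at the dim level, renormalisation by quantiles or medians, and trend with robust fitting. A replicate block and leaving out arrays were also run.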

Additional observations from a re-analysis of the deposited data

Results flagged for a closer look

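Dixon's test was applied to each group of arrays at each of the 17 probe sets, 34 groups in all. Chance marks about 1 in 20 groups whose values are free of ties. It marked 3. Ackr3 on sham replicate 3 read 10.89, against 11.44 to 11.46 on the other sham arrays. The dim Cxcl9 probe set read 2.998 on banding replicate 3, against an identical value of 2.70 on all other banded arrays. The dim Cxcl1 probe set read 2.79 on banding replicate 3, against an identical value of 2.63 on all other banded arrays. Where the other arrays are tied, any departure is marked, so the rate of 1 in 20 does not hold for these dim probe sets.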

How the results depend on the processing

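All 6 calls among the 10 genes held their direction and stayed past the threshold under every alternative that could be run for them, with 3 higher and 3 lower throughout, and without any 1 array the counts stayed at 3 and 3. The exception is leaving out probe sets with suffix x, s or a, under which Ackr3 and Ccrl2 have no probe set. There 2 genes were lower, of 8 measured. The Ackr3 probe set was left out for the suffix s and that of Ccrl2 for the suffix a, which does not by itself mark cross-hybridisation. Adjusted p over the alternatives ran from 1.82e-05 to 0.0157 for Cxcl10, from 0.000355 to 0.0221 for Cxcl12, from 1.51e-05 to 0.0154 for Cxcr4, from 9.44e-06 to 0.00742 for Cxcl14, from 1.54e-08 to 0.00352 for Ccl11 and from 0.000154 to 0.0157 for Ccrl2. The difference of Ackr3 changed sign to 0.074 with the replicate block, to 0.12 without sham replicate 4 and banding replicate 5, and ran from -0.15 to 0.074 without single arrays. Cxcl13 changed sign without banding replicate 3, at -0.062, and ran up to 0.33 without other single arrays. These sign changes lie within the standard errors. Same-numbered arrays did not deviate together (correlations of 0.01, -0.01, -0.08 and 0.01 for replicates 1 to 4). The replicate block called 5277 of 18193 genes against 6989 without it, and kept 3 of the 10 genes higher and 3 lower. Without sham replicate 4 and banding replicate 5, an alternative added for the lists after seeing the data, the CXCR2 list had 0 genes higher, the eotaxin list 0 lower and the chemerin list 1 higher, with fewer arrays fitted. Testing all probe sets called 10960 of 34945. Dim probe sets limit what can be seen for Cxcl13 and for Ccl11 in banding.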

Other observations

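Banding replicate 3 had the highest summed level of T and NK cell markers, at 6.88 against 5.50 to 5.62 on the other banded arrays and 5.50 to 5.82 on the sham arrays. Cd3d, a chain of the T cell receptor complex, read 5.30 there and 2.94 or less on the other 8 arrays, and Cd8a read 5.02 there and 3.52 or less elsewhere. The same array had the highest Cxcl13 at both probe sets (4.96 and 5.82) and the highest Cxcl1 at its brightest probe set (7.33). At the second Cxcl1 probe set it read 6.57 and sham replicate 3 read 6.58, and the Cxcl9 of banding replicate 3, at 7.83, was next to the highest. These are values of 1 array, chosen after they were seen, and no test was made.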
